A study of Homo sapiens with 22 samples.

Results

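The 40 genes described here make ribosomes: they encode factors of RNA polymerase I, of small nucleolar RNA particles (snoRNPs) and of the assembly of the small and large ribosomal subunits, and abundant proteins of the nucleolus. They were taken by gene name from 3 expression tables the authors deposited for MDA-MB-231, a line established from a human breast cancer. All 40 were found among the 60669 genes of the knockdown table and of the DMSO table, and 39 among the 14954 genes of the CTRL table, which had no NOP2 row. The rule that names them uses gene names only. All 40, or 39 in the CTRL table, passed the filter on low values described below, so every member was tested.

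RNA-seq was run on 22 libraries in 11 groups of 2, and the study, by its title, is about BET inhibition and the m6A writer complex. BET proteins are bromodomain readers of acetylated histones, and the writer complex methylates adenosines in RNA with METTL3 as its catalytic subunit. All cells carry the label genotype WT. The knockdown table holds shM3 cells given METTL3-WT (shM3_WT), shM3 cells given METTL3-CD (shM3_CD), shM3 cells, and the cells labelled B5 that they are set against, each kept in culture for 2 to 3 months. In the DMSO table are cells given I-BET151, Molib or JQ1, each at 0.5 µM, and cells given DMSO, all for 3 days. The CTRL table holds cells labelled MW_JQ1, which the treatment label gives as 0.5 µM JQ1, cells given 0.5 µM JQ1, and CTRL cells, all for 3 days. The labels spell out neither CD, B5 nor MW, and whether a line is 1 clone is not stated in them. The JQ1 columns of the DMSO table carry no replicate number and were assigned by elimination, so their libraries are called a and b.

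Ribosomes are built in the nucleolus, where RNA polymerase I transcribes the ribosomal DNA into a long precursor. SnoRNPs guide the methylation and pseudouridylation of that RNA, and assembly factors then cut, fold and package it with ribosomal proteins into the small and large subunits. Growth and the transcription factor MYC are known to drive this pathway in cancer cells, and many of its genes carry the E-box CACGTG, a site that MYC and other basic helix-loop-helix factors bind.

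That E-box was looked for in the 250 bases before each RefSeq transcription start of build GRCh38.p14, of which a gene can have several, and CACGTG reads the same on both strands. It was found in 6 of the 33 members that matched a promoter by symbol, which is 18.2%. It was found in 15.5% of 110 other ribosome biogenesis genes with a promoter, in 7.73% of all 27305 gene symbols and in 6.32% of all 34943 promoters. A match describes the letters and not a bound site. NOP58, NOLC1, TCOF1, BOP1, RRP12, RRP1B and RRS1 had no entry. All 6 matches are shown. In the results below, UTP4, DDX21 and IMP4 rose in shM3 cells relative to B5, LYAR and UTP20 fell, and NAT10 was not called. Each line gives 30 bases around the match, 5′ to 3′ on the strand of the gene, with the E-box in capitals, and 5 of the 6 windows overlap an annotated untranslated region of some transcript.
UTP4, chr16:69132619-69132648, plus strand: tgagagcgcgcgcgCACGTGgggccggggc
DDX21, chr10:68956604-68956633, plus strand: ggccgggtgtccCACGTGgtccccggcgac
LYAR, chr4:4290068-4290097, minus strand: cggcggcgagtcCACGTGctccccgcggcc
UTP20, chr12:101280075-101280104, plus strand: gcgccgttcttttttccgtcCACGTGaccc
NAT10, chr11:34105599-34105628, plus strand: tttaatgcgcttgcgCACGTGctgtctacc
IMP4, chr2:130342682-130342711, plus strand: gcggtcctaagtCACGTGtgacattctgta
Between the E-box and the RefSeq start whose window holds it lie 4 bases in UTP20, 9 in NAT10, 10 in UTP4, 25 in DDX21, 58 in LYAR and 197 in IMP4. A gene's annotated start can lie further out: in the GENCODE annotation of hg38 the first base of the E-box lies 14 bases before the gene's start in UTP20 but inside the gene in the others, 12 bases past its start in NAT10, 84 in LYAR, 469 in IMP4, 488 in DDX21 and 1342 in UTP4.

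Levels are FPKM, that is fragments scaled to gene length and library total, given per library or as mean ± SD (n = 2). Differences are of log2(FPKM + 1), with the group named first minus the other, and understate the change of low genes. A gene was called at an adjusted p under 0.05 from limma with Benjamini-Hochberg adjustment over all genes of the table, and "rose" and "fell" are used of called genes only. Whether both libraries of a group were grown apart is not in the labels, so p-values reflect only how these samples vary, perhaps technically. Bulk RNA cannot tell fewer cells of a kind from less RNA per cell. METTL3, the targeted gene, was at 312 and 311 FPKM in shM3_WT, 277 and 270.5 in shM3_CD, 4.39 and 4.805 in shM3, and 20.1 and 23.8 in B5. HEXIM1, a gene known to rise under BET inhibition, was at 72.9 and 69.6 FPKM with Molib and 73.8 and 76.7 with JQ1, against 26.5 and 29.4 with DMSO, but at 10.3 and 6.37 in the libraries labelled I-BET151, which goes against that label. In the CTRL table HEXIM1 was at 46.4 and 55.05 FPKM in MW_JQ1 and 85.3 and 76.97 with JQ1, against 63.4 and 52.04 in CTRL, so the MW_JQ1 libraries, labelled as JQ1-treated, overlapped CTRL. MYC ranged from 2.96 to 45.4 FPKM over the 22 libraries and differed between the B5 libraries, with 3.70 and 24.6 FPKM. What this split means for the comparisons with B5 below was not tested. In the CTRL table MYC was at 6.35 to 6.55 FPKM in MW_JQ1, 14.4 to 35.5 with JQ1 and 35.8 to 45.4 in CTRL. Both MW_JQ1 libraries thus lay below the other libraries of that table. VIM (549 to 1627 FPKM), AXL, CD44, EGFR and CAV1, markers of this line, were present in all 22 libraries. CDH1, ESR1, PGR and FOXA1 of luminal epithelium, PTPRC and CD3E of blood cells and VWF of endothelium did not pass 0.618 FPKM in the 16 libraries whose tables list them. Other genes of those lists were detected: over the 22 libraries KRT8 was at 199.7 to 666 FPKM, and EPCAM reached 10.9, GATA3 8.14, COL1A1 13.4, PDGFRB 6.98 and PECAM1 4.87 FPKM. Their part in the results was not tested. The 2 CTRL and the 2 JQ1 libraries of the CTRL table stood apart and are described with that table.

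The members spanned a wide range of levels. NPM1, the abundant chaperone nucleophosmin, led every group, with 573 to 908 FPKM in the knockdown table. NPM1 has processed pseudogenes with near-identical sequence, so its level depends on how shared reads were assigned. FBL, the methyltransferase of box C/D snoRNPs, NCL (nucleolin) and NOP56, a core box C/D protein, followed. The median member was at 37.4 FPKM in shM3_WT, 29.4 in shM3_CD, 28.5 in shM3 and 28.4 in B5. WDR12, a partner of PES1 and BOP1 in the large subunit, was the lowest member in B5, with 3.96 and 4.34 FPKM. Summed over the 40 genes, FPKM came to 2833 and 2822 in shM3_WT, 2241 and 2222 in shM3_CD, 2186 and 2151 in shM3, and 1962 and 2024 in B5. The sum was thus higher in both shM3_WT libraries than in any other library of the table.

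METTL3 knockdown was compared first. Of the 40 members, 16 rose and 5 fell in shM3 cells relative to B5, when 37.8% of the 14638 genes tested were called, 17.9% higher and 19.9% lower. The member median was 0.26 on the log2 scale, against 0.00 over all genes. The rises were spread over the pathway: POLR1A, POLR1B and RRN3 of RNA polymerase I, NOLC1 and NOP2 of snoRNPs and rRNA modification, TSR1, UTP4, PNO1, WDR43 and IMP4 of the small subunit, NOP16, GNL2, BOP1 and PES1 of the large subunit, and DDX21 and GNL3 among abundant nucleolar proteins. The 5 falls were TCOF1, RRS1, LYAR, DDX10 and UTP20.

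TCOF1 (ENSG00000070814, GENCODE annotation of hg38, chr5:150357629-150400308, plus strand) encodes treacle, a nucleolar scaffold that recruits RNA polymerase I factors. It was at 10.5 and 9.86 FPKM in shM3, against 31.3 and 36.1 in B5. Both shM3 libraries lay far below both B5 libraries, and the means of 10.2 ± 0.485 and 33.7 ± 3.41 FPKM differed by -1.63 (SE 0.10, adjusted p = 7.56e-05), the deepest fall among the members. 3 other polymerase I factors rose. POLR1B, the second largest subunit of the enzyme, was at 12.7 and 13.9 FPKM in shM3, against 7.48 and 6.75 in B5, a rise of 0.82 (SE 0.12, adjusted p = 0.00234). RRN3, the initiation factor TIF-IA that brings the polymerase to the promoter, was at 15.6 and 13.7 FPKM in shM3, against 8.53 and 9.19 in B5 (0.66, SE 0.11, adjusted p = 0.00376). POLR1A, the largest subunit, rose by 0.41 (18.0 ± 0.0178 FPKM in shM3, 13.3 ± 0.534 in B5). UBTF, which binds ribosomal DNA promoters, overlapped between the groups with 24.4 and 30.8 FPKM in shM3, against 37.1 and 25.2 in B5.

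**Figure D1:**
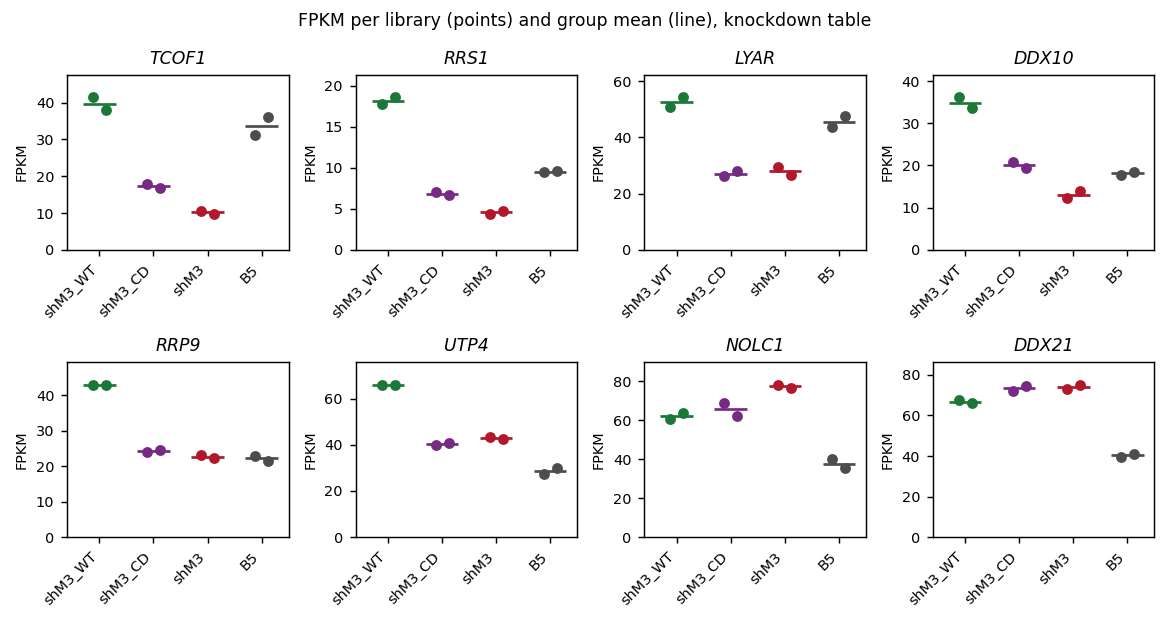
FPKM (y axis, linear, from 0) of 8 members in each library of the knockdown table (points) with the group mean (line), for shM3_WT, shM3_CD, shM3 and B5. TCOF1, RRS1, LYAR and DDX10 were lower in shM3 than in B5 and highest in shM3_WT, RRP9 and UTP4 were highest in shM3_WT, and NOLC1 and DDX21 were lowest in B5.

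NOLC1, a chaperone of snoRNPs that also carries the name Nopp140, had the largest rise in shM3. It was at 78.2 and 76.7 FPKM in shM3, against 40.1 and 35.4 in B5, and the difference was 1.02 (SE 0.09, adjusted p = 0.000284). NOP2, the methyltransferase of a cytosine of large subunit rRNA, rose by 0.56 but its shM3 libraries lay apart, at 32.2 and 22.7 FPKM, against 16.7 and 19.5 in B5. The 6 other members of this role, FBL, NOP56, NOP58, DKC1, RRP9 and NAT10, passed no test, with differences between -0.28 and 0.18, and the median of the 8 was 0.09.

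Among the 12 small subunit factors 5 rose and 2 fell. TSR1, a late cytoplasmic maturation factor, was at 43.6 and 42.3 FPKM in shM3, against 26.3 and 28.1 in B5 (0.64, SE 0.07, adjusted p = 0.000773). UTP4, a subunit of the t-UTP complex that acts on the nascent precursor, was at 43.3 and 42.7 FPKM in shM3, against 27.3 and 30.1 in B5 (0.57, SE 0.08, adjusted p = 0.00145). PNO1, a partner of the NOB1 nuclease, was at 19.8 and 23.0 FPKM in shM3, against 13.7 and 13.8 in B5 (0.60, SE 0.12). For all 3 the lower shM3 library was above the higher B5 library. The falls were DDX10, an RNA helicase, with 12.2 and 13.9 FPKM in shM3, against 17.7 and 18.6 in B5 (-0.45, SE 0.09, adjusted p = 0.0101), and UTP20, a large scaffold of the processome, with 7.57 and 8.04 FPKM in shM3, against 9.72 and 11.5 in B5 (-0.40, SE 0.11, adjusted p = 0.023).

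In the large subunit group 4 of 10 rose and 1 fell. RRS1, which brings the 5S particle into the pre-60S subunit, was at 4.42 and 4.78 FPKM in shM3, against 9.43 and 9.62 in B5 (-0.91, SE 0.09, adjusted p = 0.000461). NOP16, a nucleolar assembly factor of the large subunit, was at 67.9 and 63.8 FPKM in shM3, against 41.8 and 37.9 in B5 (0.71, SE 0.08, adjusted p = 0.000647). GNL2 and BOP1, a GTPase and a scaffold of pre-60S particles, rose by 0.40 and 0.35, with SDs of at most 1.83 FPKM within a group.

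The abundant nucleolar proteins split. DDX21, a helicase that acts in both polymerase I and II transcription, was at 72.9 and 75.2 FPKM in shM3, against 39.6 and 41.2 in B5 (0.86, SE 0.07, adjusted p = 0.000182). GNL3 (nucleostemin) rose by 0.43 (86.6 ± 5.08 FPKM in shM3, 64.1 ± 0.617 in B5). LYAR, a nucleolar regulator of rRNA processing, was at 29.3 and 26.7 FPKM in shM3, against 43.8 and 47.5 in B5 (-0.69, SE 0.09, adjusted p = 0.00131). The most abundant members did not pass the test, NPM1 with 610.4 and 573 FPKM in shM3, against 599 and 618 in B5, and NCL with 136 and 126 in shM3, against 139 and 139 in B5. FBL, the third of them, was at 140.2 and 136 FPKM in shM3, against 131 and 137 in B5.

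Of these 21 calls, 15 held without each of the 4 libraries in turn, 12 rises and 3 falls (TCOF1, RRS1 and LYAR). Those lost without at least 1 library were DDX10, WDR43, PES1, UTP20, NOP2 and IMP4, with adjusted p up to 0.233.

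**Figure D2:**
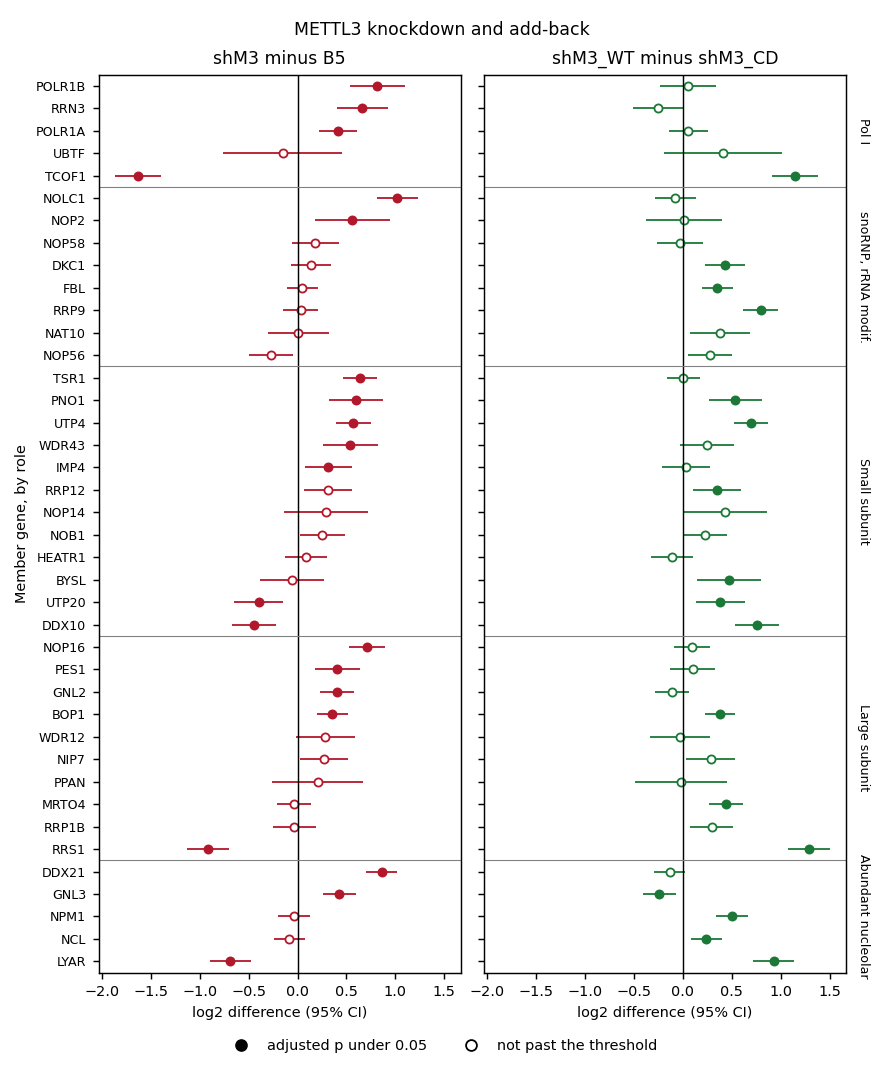
Difference on the log2(FPKM + 1) scale (x axis) with its 95% confidence interval for the 40 members (y axis, by role), for shM3 minus B5 (left) and shM3_WT minus shM3_CD (right); filled points passed the test. TCOF1 at -1.63, RRS1 at -0.91 and LYAR at -0.69 lie lowest on the left, and on the right the same genes lie at 1.14, 1.29 and 0.93.

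Adding METTL3-WT back was compared with shM3 itself, using the shM3 libraries of the comparison above. In shM3_WT 18 members rose and 5 fell, when 39.4% of all genes were called, 16.7% higher and 22.7% lower, and the member median was 0.25 against -0.08 over all genes. With TMM factors or with medians made equal the split was 19 higher and 1 lower, and GNL2, NOLC1, HEATR1 and NOP58 were no longer called lower. RRS1 and TCOF1 had the largest rises. RRS1 was at 17.7 and 18.6 FPKM in shM3_WT, against 4.42 and 4.78 in shM3, which is 3.95-fold (1.77 on the log2 scale, SE 0.09, adjusted p = 3.91e-05). TCOF1 was at 41.4 and 37.9 FPKM in shM3_WT, against 10.5 and 9.86 in shM3, 3.89-fold (1.86, SE 0.10, adjusted p = 4.43e-05). Neither gene overlapped between the groups.

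DDX10 was at 36.1 and 33.5 FPKM in shM3_WT, against 12.2 and 13.9 in shM3, 2.67-fold (1.35, SE 0.09, adjusted p = 0.000105). LYAR was at 50.7 and 54.2 FPKM in shM3_WT, against 29.3 and 26.7 in shM3, 1.88-fold (adjusted p = 0.000422). UTP20 was at 11.5 and 11.2 FPKM in shM3_WT, against 7.57 and 8.04 in shM3 (0.49, SE 0.11, adjusted p = 0.00953), a call lost without shM3 replicate 1 (adjusted p = 0.0542).

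Members outside those genes rose too. RRP9, a protein of the U3 snoRNP that directs early cleavages, was at 42.9 and 42.7 FPKM in shM3_WT, against 23.2 and 22.2 in shM3 (0.89, SE 0.07, adjusted p = 0.000205). MRTO4, a nuclear paralogue of the P0 stalk protein, was at 44.6 and 46.7 FPKM in shM3_WT, against 27.1 and 28.9 in shM3 (0.69, SE 0.07, adjusted p = 0.000547). NPM1 was at 908 and 887 FPKM in shM3_WT, against 610.4 and 573 in shM3 (0.60, SE 0.07, adjusted p = 0.000756). These 3 genes were separated between the groups by far more than the replicates differed.

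The box C/D core moved with them: FBL averaged 196 ± 6.58 FPKM in shM3_WT and 138 ± 2.78 in shM3, and NOP56 averaged 155 ± 2.39 in shM3_WT and 107 ± 7.37 in shM3. DKC1, the pseudouridine synthase dyskerin of box H/ACA snoRNPs, averaged 59.2 ± 2.55 FPKM in shM3_WT and 43.1 ± 3.44 in shM3. NCL averaged 179 ± 1.17 FPKM in shM3_WT and 131 ± 6.73 in shM3. NOP58, the partner of NOP56 in the same particle, went the other way as deposited, with 30.3 and 29.1 FPKM in shM3_WT, against 33.6 and 40.6 in shM3 (-0.30, adjusted p = 0.0489). NCL, GNL3, NOP56 and NOP58 carry snoRNAs in their introns, and whether reads were assigned by strand or kept out of introns is not stated.

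The 5 falls were small. RRN3 was at 11.1 and 10.1 FPKM in shM3_WT, against 15.6 and 13.7 in shM3 (-0.43, SE 0.11, adjusted p = 0.0194). GNL2 was at 31.4 and 33.6 FPKM in shM3_WT, against 41.3 and 39.9 in shM3. NOLC1 was at 60.5 and 63.6 FPKM in shM3_WT, against 78.2 and 76.7 in shM3. HEATR1, a t-UTP subunit, was at 9.94 and 9.40 FPKM in shM3_WT, against 11.96 and 11.97 in shM3. Each of the 5 was lower in both shM3_WT libraries, but none of the calls held without every library in turn, while 12 of the 18 rises did.

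With METTL3-CD added back few genes of any kind were called, 7.5% of the members and 11.4% of all genes. In shM3_CD 3 rose and none fell relative to shM3, when 11.4% of all genes were called, 6.82% higher and 4.59% lower, and the member median was -0.02 against 0.01 over all genes. TCOF1 was at 17.9 and 16.9 FPKM in shM3_CD, against 10.5 and 9.86 in shM3, 1.70-fold (0.71, SE 0.10, adjusted p = 0.00664). DDX10 was at 20.9 and 19.5 FPKM in shM3_CD, against 12.2 and 13.9 in shM3, 1.54-fold (adjusted p = 0.011). RRS1 was at 7.02 and 6.69 FPKM in shM3_CD, against 4.42 and 4.78 in shM3, 1.49-fold (adjusted p = 0.0182). All 3 were separated between the groups. The count was 0 without shM3_CD replicate 1, 1 without shM3_CD replicate 2 and 1 without shM3 replicate 1.

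The 2 add-back lines were also compared with each other. In shM3_WT 16 members rose and 1 fell relative to shM3_CD, when 25.9% of all genes were called, 10.2% higher and 15.7% lower, and the member median was 0.28 against -0.08. With TMM factors or equal medians 20 were higher and none lower, and GNL3, the gene called lower as deposited (75.5 and 77.8 FPKM in shM3_WT, against 89.8 and 91.6 in shM3_CD), was not called. RRS1 was 2.65-fold higher (18.1 ± 0.592 FPKM in shM3_WT, 6.86 ± 0.233 in shM3_CD; 1.29, SE 0.09, adjusted p = 0.000515). TCOF1 was 2.28-fold higher (39.7 ± 2.49 FPKM in shM3_WT, 17.4 ± 0.724 in shM3_CD; 1.14, SE 0.10, adjusted p = 0.000894).

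LYAR was at 50.7 and 54.2 FPKM in shM3_WT, against 26.1 and 28.0 in shM3_CD, 1.94-fold (adjusted p = 0.00116). RRP9 was at 42.9 and 42.7 FPKM in shM3_WT, against 23.9 and 24.6 in shM3_CD, 1.77-fold (adjusted p = 0.00112). UTP4 was at 66.0 and 65.9 FPKM in shM3_WT, against 39.97 and 40.76 in shM3_CD, 1.63-fold (adjusted p = 0.00161). DDX10, NPM1 and MRTO4 rose by 1.73-fold, 1.41-fold and 1.37-fold, and these 8 genes kept their calls without each library in turn. The other calls, BOP1, FBL, DKC1, PNO1, UTP20, NCL, BYSL and RRP12 higher and GNL3 lower, were each lost in at least 1 such fit, and 9 members were called without shM3_CD replicate 1 or replicate 2 and 11 without shM3_WT replicate 1 or replicate 2. All 5 genes that had fallen in shM3 relative to B5 were among the 16 that rose in shM3_WT relative to shM3_CD, which is the whole of the first list and 31.2% of the second. Over all genes, 31.3% of those lower in shM3 were higher in shM3_WT than in shM3_CD, which is 61.1% of the second list. These comparisons share no library.

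**Figure D3:**
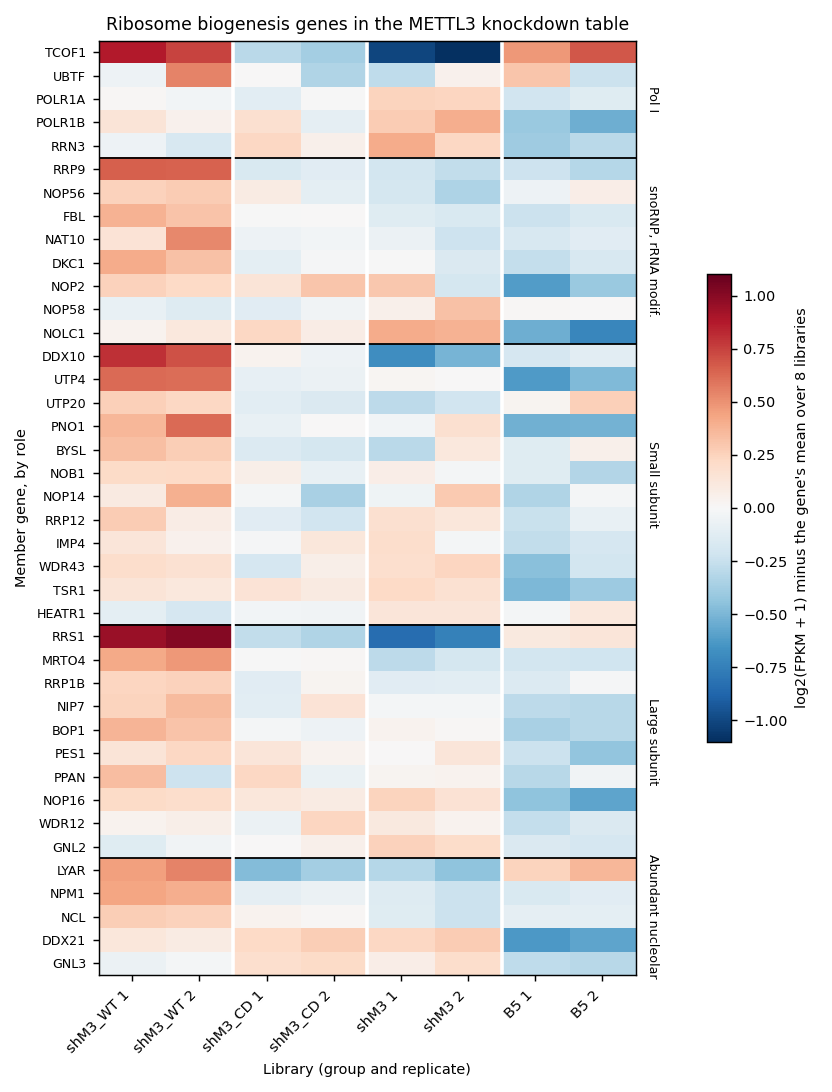
Heat map of the 40 members (rows, by role) in the 8 libraries of the knockdown table (columns), coloured by log2(FPKM + 1) minus the mean of the gene over the 8 libraries. The columns of shM3_WT are red for TCOF1, RRS1, DDX10, RRP9 and UTP4, those of shM3 are blue for TCOF1, RRS1 and DDX10, and those of B5 are blue for NOLC1, DDX21 and UTP4.

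Both add-back lines were set against B5 as well, with the B5 and add-back libraries already used above. In shM3_WT 25 members rose and none fell relative to B5, when 30.0% of all genes were called, 11.8% higher and 18.2% lower, and the member median was 0.47 against -0.07 over all genes. Making medians equal moved the median of all genes to 0.03, and 31 members were then called higher. UTP4 was at 66.0 and 65.9 FPKM in shM3_WT, against 27.3 and 30.1 in B5 (1.18, SE 0.08, adjusted p = 0.000155). PNO1 was at 26.3 and 31.8 FPKM in shM3_WT, against 13.7 and 13.8 in B5 (1.02, SE 0.12, adjusted p = 0.00119). DDX10 and RRS1 were 1.92-fold and 1.91-fold higher in shM3_WT. TCOF1 did not pass the test, with 41.4 and 37.9 FPKM in shM3_WT, against 31.3 and 36.1 in B5. BOP1, RRP9, DDX21 and NOP16 rose by 0.68, 0.92, 0.71 and 0.71, each with both shM3_WT libraries above both B5 libraries, and 17 of the 25 calls held without each library in turn.

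In shM3_CD 12 members rose and 3 fell relative to B5, when 29.9% of all genes were called, 14.8% higher and 15.2% lower, and the member median was 0.20 against 0.00. The falls were TCOF1 (17.9 and 16.9 FPKM in shM3_CD, against 31.3 and 36.1 in B5; -0.92, SE 0.10, adjusted p = 0.00109), LYAR (26.1 and 28.0 FPKM in shM3_CD, against 43.8 and 47.5 in B5; -0.73, adjusted p = 0.00159) and RRS1 (7.02 and 6.69 FPKM in shM3_CD, against 9.43 and 9.62 in B5; -0.42, adjusted p = 0.0137). DDX21 led the rises with 72.3 and 74.7 FPKM in shM3_CD, against 39.6 and 41.2 in B5 (0.85, SE 0.07, adjusted p = 0.000368). NOLC1 rose by 0.78, NOP16 by 0.62, TSR1 by 0.57, GNL3 by 0.49 and UTP4 by 0.48. The calls of TCOF1, LYAR, DDX21, NOLC1, NOP16, TSR1, GNL3 and UTP4, 8 of the 15, held without each library in turn.

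A wider list of 126 other ribosome biogenesis genes was counted beside the members. In shM3 35 of them rose and 18 fell relative to B5, in shM3_WT 30 rose and 13 fell relative to shM3, in shM3_CD 4 rose and 6 fell relative to shM3, and in shM3_WT 33 rose and 4 fell relative to shM3_CD. Of all genes tested, 17.9% rose and 19.9% fell in the first comparison and 16.7% rose and 22.7% fell in the second. The shares were 6.82% and 4.59% for shM3_CD against shM3, and 10.2% and 15.7% for shM3_WT against shM3_CD. RRP36, a small subunit processome protein, had the deepest fall in shM3, to 30.02 ± 0.411 FPKM, against 89.6 ± 4.24 in B5 (-1.55, SE 0.08, adjusted p = 4.88e-05), and was at 102 ± 4.73 FPKM in shM3_WT. PAK1IP1, a 60S assembly factor, was at 10.2 ± 0.667 FPKM in shM3 and 30.4 ± 0.460 in B5 (-1.49, SE 0.09), and at 32.1 ± 1.91 in shM3_WT and 10.8 ± 0.333 in shM3_CD. NOP9 and NOP10, an RNA-binding protein of the processome and a box H/ACA core protein, rose in shM3 by 1.12 and 0.90, and NOP9 and RIOK2, a kinase of the pre-40S subunit, fell in shM3_WT relative to shM3 by 0.79 and 0.92.

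The compounds were compared with DMSO at 0.5 µM after 3 days, the dose and time that the 3 share. With JQ1, a BET bromodomain inhibitor, 3 members rose and 13 fell, when 35.1% of the 14936 genes tested were called, 14.5% higher and 20.6% lower. The member median was -0.23 against -0.04 over all genes. The split was 4 higher and 10 lower with TMM factors and 5 higher and 9 lower with equal medians. By role, 6 of 12 small subunit factors and 5 of 10 large subunit factors fell, 1 large subunit factor rose, TCOF1 fell among the polymerase I factors, and none of the 8 snoRNP and modification genes was called.

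TCOF1 was at 29.9 and 28.7 FPKM with JQ1, against 57.3 and 56.8 with DMSO (-0.94, SE 0.14, adjusted p = 0.00233). UTP4 was at 32.0 and 27.8 FPKM with JQ1, against 47.1 and 51.8 with DMSO (-0.71, SE 0.11, adjusted p = 0.00264). RRS1 was at 10.2 and 7.82 FPKM with JQ1, against 16.0 and 16.5 with DMSO (-0.80, SE 0.15, adjusted p = 0.00574). None of these overlapped between JQ1 and DMSO.

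PPAN, a large subunit factor whose gene overlaps a read-through transcript with P2RY11, was at 17.6 and 16.5 FPKM with JQ1, against 29.6 and 28.4 with DMSO (-0.73, SE 0.13, adjusted p = 0.00517). MRTO4 was at 27.8 and 27.8 FPKM with JQ1, against 42.8 and 40.1 with DMSO (-0.56, SE 0.10, adjusted p = 0.00502). The 3 rises were NPM1, with 1204 and 1169 FPKM with JQ1, against 792 and 795 with DMSO (0.58, SE 0.09, adjusted p = 0.00319), RRP1B, a nucleolar protein of the large subunit path, with 30.01 and 32.3 FPKM with JQ1, against 21.6 and 20.9 with DMSO (0.53, SE 0.10, adjusted p = 0.00594), and GNL3, with 103 and 101 FPKM with JQ1, against 86.9 and 76.6 with DMSO (0.32, SE 0.10, adjusted p = 0.0468). NCL, at 226 and 230.2 FPKM with JQ1, against 220.2 and 209.8 with DMSO, and FBL, at 169 and 168 FPKM with JQ1, against 205 and 213 with DMSO, passed no test.

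Of the 16 JQ1 calls 7 held without each library in turn: the falls of TCOF1, UTP4, MRTO4, PPAN and RRS1 and the rises of NPM1 and RRP1B. The number called was 8 without JQ1 library a or b, 9 without DMSO replicate 1 and 10 without DMSO replicate 2.

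With Molib 19 members fell and 2 rose, when 35.3% of all genes were called, 14.8% higher and 20.5% lower, and the member median was -0.32 against -0.03. With TMM factors or equal medians 14 were lower and 2 higher. TCOF1 was at 28.4 and 25.4 FPKM with Molib, against 57.3 and 56.8 with DMSO (-1.06, SE 0.14, adjusted p = 0.00134). PPAN was at 14.7 and 16.7 FPKM with Molib, against 29.6 and 28.4 with DMSO (-0.85, SE 0.13, adjusted p = 0.00272). RRS1 was at 8.99 and 8.44 FPKM with Molib, against 16.0 and 16.5 with DMSO (-0.83, SE 0.15, adjusted p = 0.00473). In all 3 both Molib libraries lay well below both DMSO libraries.

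DDX10 was at 10.1 and 11.4 FPKM with Molib, against 16.7 and 19.5 with DMSO (-0.70, SE 0.11, adjusted p = 0.00356). MRTO4, TSR1 and UTP4 fell by 0.63, 0.58 and 0.62, and LYAR was at 32.1 and 30.4 FPKM with Molib, against 46.3 and 47.8 with DMSO (-0.57, SE 0.11, adjusted p = 0.0061). The rises were RRP1B, with 28.0 and 29.8 FPKM with Molib, against 21.6 and 20.9 with DMSO (0.42, adjusted p = 0.0136), and NPM1, with 962 and 1037 FPKM with Molib, against 792 and 795 with DMSO (0.33, adjusted p = 0.0275). FBL had 193 and 266 FPKM with Molib, against 205 and 213 with DMSO, and NCL had 198 and 195 FPKM with Molib, against 220.2 and 209.8 with DMSO, neither past the threshold.

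The falls of TCOF1, PPAN, MRTO4, TSR1, DDX10, UTP4, RRS1 and LYAR held without each library in turn, 8 of the 21 Molib calls. The number called was 8 without DMSO replicate 1, 9 without Molib replicate 2, 10 without DMSO replicate 2 and 11 without Molib replicate 1.

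**Figure D4:**
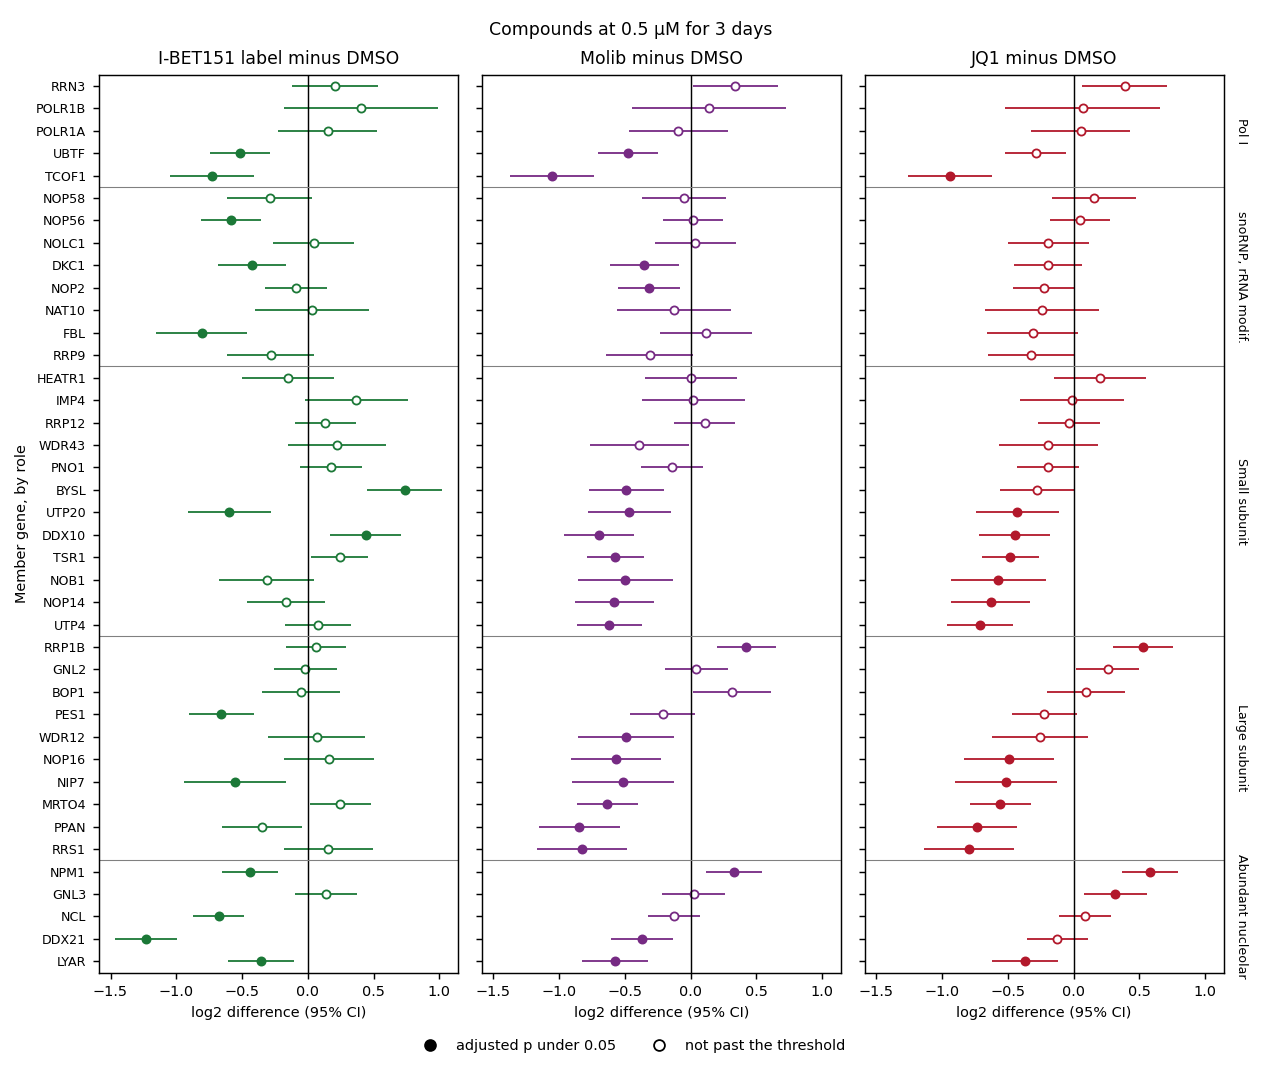
Difference from DMSO on the log2(FPKM + 1) scale (x axis) with its 95% confidence interval for the 40 members (y axis, by role), for the libraries labelled I-BET151, for Molib and for JQ1; filled points passed the test. UTP4, RRS1, MRTO4 and TSR1 lie below 0 with Molib and JQ1 and are not called in the libraries labelled I-BET151, where DDX21 lies at -1.23 and BYSL at 0.74.

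In the libraries labelled I-BET151, in which HEXIM1 was lower than with DMSO, 12 members fell and 2 rose, when 28.0% of all genes were called, 13.9% higher and 14.1% lower. The member median was -0.04 against 0.00. DDX21 was at 21.2 and 24.0 FPKM, against 56.6 and 52.2 with DMSO (-1.23, SE 0.10, adjusted p = 0.000354). That was the deepest fall of a member in any comparison with DMSO, in libraries whose HEXIM1 goes against their label. NCL was at 130.1 and 138 FPKM, against 220.2 and 209.8 with DMSO (-0.68, SE 0.08, adjusted p = 0.00169). FBL was at 113 and 125 FPKM, against 205 and 213 with DMSO (-0.81, SE 0.15, adjusted p = 0.00769). Of the 5 genes of abundant nucleolar proteins, 4 were thus called lower in RNA, NPM1 among them at 558 and 611 FPKM, against 792 and 795 with DMSO (-0.44, adjusted p = 0.0122). The other, GNL3, averaged 90.0 FPKM, against 81.8 with DMSO, and was not called.

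NOP56 was at 112 and 102 FPKM in the libraries labelled I-BET151, against 155 and 168 with DMSO (-0.59, SE 0.10, adjusted p = 0.00539). PES1, the pescadillo scaffold of pre-60S particles, was at 45.7 and 42.9 FPKM, against 67.3 and 73.8 with DMSO (-0.66, SE 0.10, adjusted p = 0.0046). TCOF1 was at 38.9 and 29.8 FPKM, against 57.3 and 56.8 with DMSO (-0.73, SE 0.14, adjusted p = 0.00838). The rises were BYSL, a pre-40S factor also called bystin, at 73.9 and 91.2 FPKM, against 47.3 and 50.6 with DMSO (0.74, SE 0.12, adjusted p = 0.00499), and DDX10, at 24.6 and 25.0 FPKM, against 16.7 and 19.5 with DMSO (0.44, SE 0.11, adjusted p = 0.0273). The calls of DDX21, NCL, PES1, NOP56 and BYSL held without each library in turn. The number called was 6 without DMSO replicate 1 and 7 without DMSO replicate 2, and it was 8 with these 2 groups alone in the fit.

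The compounds were compared with each other in 3 pairs, with p-values adjusted over the pairs together. Molib and JQ1 differed in 0 members, when 2.54% of all genes were called, 1.36% higher and 1.19% lower, and 5 members and 1227 of 14936 genes had an unadjusted p under 0.05 in limma. The 5 were DDX21, GNL3, NCL and NPM1, lower with Molib, and FBL, higher with Molib. The 95% interval of the Molib minus JQ1 difference had a median half-width of 0.30 and reached 0.59, so differences within those limits are not excluded. It ran from -0.44 to 0.20 for TCOF1, from -0.37 to 0.31 for RRS1, from -0.16 to 0.34 for UTP4 and from -0.46 to -0.03 for NPM1. Without Molib replicate 1, 1 member was called.

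The libraries labelled I-BET151 differed from JQ1 in 17 members, 9 higher and 8 lower, when 40.2% of all genes were called, 22.3% higher and 17.9% lower. They differed from Molib in 18 members, 11 higher and 7 lower, when 39.4% of all genes were called, 21.6% higher and 17.8% lower. In both comparisons the share of members called was thus little above the share of all genes. The member median was 0.12 for the comparison with JQ1, against 0.03 over all genes. For the comparison with Molib it was 0.14, against 0.02 over all genes. BYSL, DDX10, MRTO4, TSR1, UTP4, RRS1 and NOP16 were higher in the libraries labelled I-BET151 than with either compound. NPM1, DDX21, NCL, NOP56, FBL, PES1 and RRP1B were lower, with the libraries labelled I-BET151 shared by both comparisons. DDX10 was 2.31-fold higher than with Molib and 1.92-fold higher than with JQ1 (adjusted p = 0.000468 and 0.00133). BYSL was 2.39-fold higher than with Molib and 2.05-fold higher than with JQ1. NPM1 was lower than with JQ1 by 1.02 on the log2 scale and lower than with Molib by 0.77 (adjusted p = 0.000286 and 0.000922). NOP14, a processome protein, was also called higher, at 47.1 and 54.6 FPKM, against 40.3 and 35.4 with Molib and 33.6 and 39.5 with JQ1. Against JQ1, 11 members were called without JQ1 library a and 11 without library b. No statement on a difference in structure is made, since the labels give names only.

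The 126 other ribosome biogenesis genes were counted in the same way: 9 rose and 31 fell with JQ1, 5 rose and 33 fell with Molib, and 14 rose and 11 fell in the libraries labelled I-BET151. Of all genes tested, 14.5% rose and 20.6% fell with JQ1, and 14.8% rose and 20.5% fell with Molib. For the libraries labelled I-BET151 these shares were 13.9% and 14.1%. BRIX1, a 60S assembly factor, was at 10.99 ± 1.69 FPKM with Molib, 12.7 ± 0.199 with JQ1 and 26.1 ± 1.76 with DMSO, a difference of -1.18 with Molib and -0.99 with JQ1. GAR1, a box H/ACA core protein, was at 33.1 ± 3.98 FPKM with Molib and 68.0 ± 6.53 with DMSO (-1.02, SE 0.14, adjusted p = 0.00167). FTSJ3, an rRNA methyltransferase, was at 21.8 ± 2.86 FPKM in the libraries labelled I-BET151 and 47.8 ± 3.81 with DMSO (-1.10, SE 0.14, adjusted p = 0.00174).

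The knockdown and the compounds were run in tables that share no library. All 5 members that fell in shM3 relative to B5 (TCOF1, RRS1, LYAR, DDX10 and UTP20) were among the 13 that fell with JQ1 and the 19 that fell with Molib, which is 38.5% and 26.3% of those lists. Over all genes tested in both tables, 36.8% of those lower in shM3 were lower with JQ1 and 37.7% with Molib, which is 34.7% and 35.9% of the genes lower with each compound. In the libraries labelled I-BET151 TCOF1, LYAR and UTP20 fell and DDX10 rose, when 26.3% of all genes lower in shM3 were lower there and 13.9% higher. Of the 16 members that rose in shM3, 3 fell with JQ1 (NOP16, TSR1 and UTP4) and 1 rose (GNL3), while 5 fell with Molib (those 3, DDX21 and NOP2) and none rose. Those falls are 18.8% and 31.2% of the 16, while of all genes higher in shM3 18.9% fell and 16.7% rose with JQ1, and 16.8% fell and 19.5% rose with Molib. UTP4 was thus called higher in shM3 relative to B5 and lower with JQ1 and Molib relative to DMSO.

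In the CTRL table the CTRL and JQ1 libraries stood apart from the MW_JQ1 libraries. RN7SL1, an abundant small RNA without a poly(A) tail, was listed at 23.8 and 57.6 FPKM in MW_JQ1, 50061 and 42965 in JQ1, and 37435 and 52947 in CTRL. Genes at 1 FPKM or more numbered 12764 and 12820 in MW_JQ1, 10228 and 8638 in JQ1, and 8679 and 10320 in CTRL. Between the replicates of a group the members differed by a median of 0.12 on the log2 scale in MW_JQ1, 0.65 in JQ1 and 0.76 in CTRL, against 0.06 to 0.18 in the groups of the other tables. Members that differed by more than 1 between replicates numbered 13 of 39 in JQ1 and 12 of 39 in CTRL, and 4 and 3 member values there were listed at 0.

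**Figure D5:**
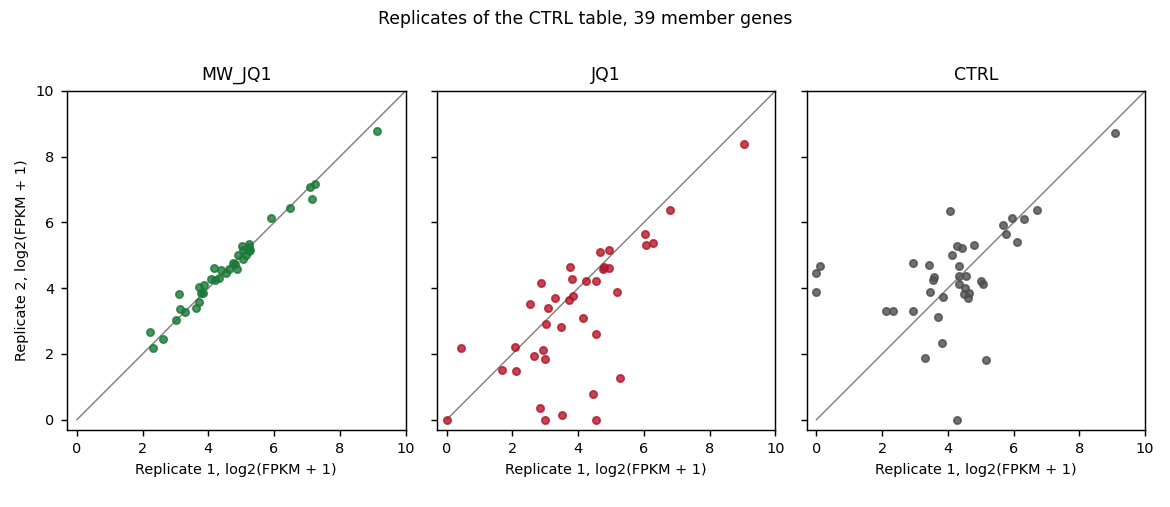
Replicate 2 against replicate 1 on the log2(FPKM + 1) scale for the 39 members of the CTRL table, in MW_JQ1, JQ1 and CTRL, with the line of equal values. The points lie close to the line in MW_JQ1 and scatter far from it in JQ1 and CTRL, where the median differences were 0.65 and 0.76.

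With this spread JQ1 and CTRL differed in 0 of 39 members, when 0.0% of 13261 genes were called in limma. An unadjusted p under 0.05 was reached by 7 members and 2048 genes, and the median half-width of the 95% interval was 1.46. The call count was 1 without CTRL replicate 2. JQ1 and CTRL libraries overlapped for 19 of the 39 members, and did not for 1 that was higher and 19 that were lower with JQ1. They did not overlap for 33.7% of all genes in either direction, and the share lower was not counted. The member median was -0.67 against -0.0002 over all genes, and -0.53 with TMM factors or equal medians. Summed over the members, FPKM came to 1325 and 898 with JQ1, against 1450 and 1403 in CTRL, so JQ1 replicate 2 was low. NPM1 was at 528 and 337 FPKM with JQ1, against 539 and 421 in CTRL. The next genes were picked after their values were seen. TCOF1 was at 8.87 and 12.03 FPKM with JQ1, against 19.1 and 16.3 in CTRL. RRS1 was at 0.366 and 3.51 FPKM with JQ1, against 11.9 and 7.71 in CTRL, and DDX10 at 12.3 and 11.4 with JQ1, against 31.4 and 17.6 in CTRL. POLR1B was at 6.64 and 3.30 FPKM with JQ1, against 22.4 and 19.5 in CTRL. These 4 genes were lower in both JQ1 libraries, but TCOF1 and DDX10 had unadjusted p of 0.116 and 0.0777 in limma. NOP16, with the smallest p of the members, was at 3.26 and 3.60 FPKM with JQ1, against 18.3 and 37.6 in CTRL. MRTO4 was at 13.1 and 18.4 FPKM with JQ1, against 18.4 and 0 in CTRL, and PPAN at 21.0 and 0.723 with JQ1, against 0 and 13.7 in CTRL. MRTO4 and PPAN had fallen with JQ1 in the DMSO table but overlapped here. RRP9 was listed at 0 in both JQ1 libraries, against 34.4 and 2.50 FPKM in CTRL.

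MW_JQ1 and JQ1 differed in 2 members, both higher in MW_JQ1, when 15.2% of all genes were called, 13.5% higher and 1.62% lower. The median over all genes was 0.75 and that of the members 0.70. With TMM factors these medians were 0.27 and 0.13, and with equal medians 0.15 and -0.01, so the direction of the member median depended on scaling. NOP16 was at 37.5 and 34.6 FPKM in MW_JQ1, against 3.26 and 3.60 with JQ1 (3.06, SE 0.46, adjusted p = 0.0126), and PES1 at 31.3 and 37.8 in MW_JQ1, against 7.55 and 9.51 with JQ1 (1.90, SE 0.39, adjusted p = 0.0378). Without JQ1 replicate 1, 9 members were called, and none was called without JQ1 replicate 2, MW_JQ1 replicate 1 or MW_JQ1 replicate 2. UTP4 was not called, with 26.9 and 25.9 FPKM in MW_JQ1, against 6.14 and 0.285 with JQ1. MW_JQ1 and CTRL differed in 0 members, when 15.1% of all genes were called, 13.3% higher and 1.88% lower, and 5 members and 3650 genes had an unadjusted p under 0.05 in limma. The member count was 2 without CTRL replicate 1, 3 without CTRL replicate 2 and 2 with these groups alone. METTL3 was at 212 and 234 FPKM in MW_JQ1, 11.8 and a listed 0 with JQ1, and 31.2 and 1.18 in CTRL, so the replicates of JQ1 and of CTRL differed widely. A difference between MW_JQ1 and the other groups and the difference between the libraries cannot be told apart here.

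The authors' deposited table, whose title sets mw against JQ1, gives a test of its own. The columns of that test name neither groups nor direction, so which comparison of the CTRL table it concerns is not known. In the authors' deposited table, among the 39 members, 1 had an adjusted p under 0.05, FBL, with a log2 fold change of -0.54 (adjusted p = 0.0322), and 8 had a p under 0.05. Of the 14954 genes in the authors' deposited table, 20.1% had an adjusted p under 0.05 and 30.5% a p under 0.05.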

How the data were processed

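The 22 RNA-seq libraries, 2 for each of 11 groups, lie in 3 tables that the authors deposited as FPKM. Only 1 table is named FPKM, and for the others that unit was read from the format and from sums per library of 426106 to 469180, apart from B5 replicate 2, where PIDD1 alone is listed at 8234197. Per the submitters' processing notes the tools were Cufflinks 2.2.1, HISAT2 2.1.0 and CASAVA 1.4, on hg38; the notes give no options, annotation or use of strand. Per the file headers, the CTRL table also holds the authors' own test: a mean signal, a log2 fold change, its standard error (a score), a p-value and an adjusted p-value per gene, copied only as printed. Total counts per library are not given, so depth is unknown and no counting interval can be set. From repeated low values, depth relative to the first library of a table lies between 0.864 and 1.51 in the knockdown and DMSO tables, as a rough guide.

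From the FPKM, log2(FPKM + 1) was taken for genes that reached 1 FPKM in 2 or more libraries of their table (14638, 14936 and 13261 genes). A limma 3.58.1 model per table held all its groups (R 4.3.3; lmFit and contrasts, then eBayes with a trend), with Benjamini-Hochberg adjusted p under 0.05 over all genes, over all 3 pairs for the compound pairs. The pipeline was tested on simulated data. Each of 15 comparisons stays within 1 table, and the design, written for counts or FPKM, took the test for FPKM. The alternatives were pseudocounts of 0.1 and 5, a filter at 5 FPKM or only at values above 0 (2 libraries each), TMM factors computed on FPKM without weights (trims of 30% and 5%), equal medians, the groups of the comparison alone, a replicate block, and leaving out each library, where a lone library is assumed to vary like the other groups.

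Values per library are given, in each comparison, for up to 8 called members with the smallest adjusted p, the 3 with the highest mean, members called against the direction of most, and others as said in the text. Up to 3 called genes in each direction come from the wider list, and promoters are those with the E-box in the 250 bases before a RefSeq start. The members and lists were chosen with earlier results of these data known. Replicate numbers of 2 groups did not move together (r of deviations between -0.12 and 0.04), so libraries were not paired. Gene positions are from GENCODE, by gene ID. Tables and plots were made with matplotlib 3.10.9, pandas 2.3.3 and Python 3.11.15.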

Additional observations from a re-analysis of the deposited data

Results flagged for a closer look

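UBTF, which binds ribosomal DNA promoters, had uncalled differences of opposite sign with 0.5 µM JQ1 after 3 days in the 2 tables that hold JQ1. In the CTRL table it was at 26.2 and 23.1 FPKM with JQ1, against 10.8 and 19.1 in CTRL, a log2 difference of 0.73. In the DMSO table it was at 41.3 and 38.5 FPKM with JQ1, against 49.5 and 48.3 with DMSO, a log2 difference of -0.29. Both JQ1 libraries were above both CTRL libraries in the first table and below both DMSO libraries in the second, and neither difference passed the adjusted threshold in limma. The difference between the tables was not tested. The CTRL and JQ1 libraries of the CTRL table stand apart from the others in RN7SL1 and in the spread of the members between replicates.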

How the results depend on the processing

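Settings other than leaving out a library kept the count of called members within 1.5 times in 108 cases and moved it in 10, and no called member reversed its direction under any alternative. For the libraries labelled I-BET151 against DMSO (14 called), 8 were called with the 2 groups alone. For MW_JQ1 against JQ1 (2 called), 4 were called with the 2 groups alone and 1 each with TMM factors, equal medians and the filter at 5 FPKM. For MW_JQ1 against CTRL (0 called), 2 were called with the 2 groups alone. A fit of 2 groups alone has fewer samples, and otherwise the cause was not tested.

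With the replicate number as a block, 10 members were called for Molib against DMSO (21 without), 9 for the libraries labelled I-BET151 against DMSO (14 without) and 1 for MW_JQ1 against JQ1 (2 without). The numbers did not pair the samples, and no blocked fit was possible for JQ1 of the DMSO table, whose columns carry none. With the pairing crossed between DMSO and the I-BET151 label, chosen after seeing the data, 9 were called.

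Leaving out each library in turn gave 17 to 19 calls for shM3 against B5, 15 to 17 for shM3_WT against shM3, 0 to 2 for shM3_CD against shM3, 9 to 11 for shM3_WT against shM3_CD, 18 to 20 for shM3_WT against B5 and 10 to 13 for shM3_CD against B5. It gave 8 to 10 for JQ1 against DMSO, 8 to 11 for Molib against DMSO, 6 to 16 for the I-BET151 label against DMSO, 0 to 1 for Molib against JQ1, 11 to 20 for the I-BET151 label against JQ1 and 12 to 20 against Molib. In the CTRL table it gave 0 to 1 for JQ1 against CTRL, 0 to 9 for MW_JQ1 against JQ1 and 0 to 3 for MW_JQ1 against CTRL. Of 768 calls of single members under these fits 258 were lost. With 2 libraries a group and unknown depth, small differences cannot be resolved.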
